A study of Mus musculus with 4 samples.

Results

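Eph receptors and ephrins are a family of cell-surface receptors and their membrane-bound ligands, and 10 of the 22 mouse genes of the family were followed here across sorted intestinal epithelial cells. The 10 genes were taken from a list of names and matched by Ensembl identifier to the count tables, which held 38124 gene identifiers, and all 10 were among the 10694 genes tested. They comprised 6 receptors (Ephb2, Ephb3, Ephb4, Epha1, Epha2 and Epha4) and 4 ephrins (Efnb1, Efnb2, Efna1 and Efna4). RNA came from 71-week-old male C57BL/6 mice fed either a high-fat diet (HFD) or its control diet. Intestinal cells were sorted by GFP brightness, and the labels name the GFP-high cells stem cells and the GFP-low cells progenitors. Both fractions were collected under HFD and under control, giving 4 groups with 1 library each from a pool of 2 to 5 mice. The sample titles call the control groups WT. Neither the driver of GFP nor what the diets contained was stated in the sources used here.

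Eph receptors are receptor tyrosine kinases that bind ephrins on neighbouring cells. Contact signals forward into the cell with the receptor and in reverse into the cell with the ephrin, and commonly leads to repulsion or changed adhesion. EphA receptors mainly bind the lipid-anchored ephrin-A ligands and EphB receptors the transmembrane ephrin-B ligands. In the mouse intestine Ephb2 and Ephb3 are known as targets of Wnt and beta-catenin signalling that are highest towards the crypt base, ephrin-B ligands are highest towards the villus, and the opposed gradients keep cell types in their places.

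The libraries held 6207080 counts in HFD GFP-high cells, 5327015 in HFD GFP-low cells, 5201394 in control GFP-high cells and 4677389 in control GFP-low cells. The stem cell label of the GFP-high fraction was checked on 9 markers, all 9 of which were called higher in GFP-high by edgeR. Their summed level was 9744 and 10808 CPM (counts per 1000000 of the TMM-scaled library size) in GFP-high cells under HFD and control, against 1583 and 2138 CPM in GFP-low cells. Markers of mature cells were high in the GFP-low fraction, which the labels call progenitors. Enterocyte markers summed to 807 and 589 CPM in GFP-high cells under HFD and control, against 6937 and 3143 CPM in GFP-low cells, and 8 of 9 were called lower in GFP-high. All 7 goblet markers were also lower in GFP-high. Mitochondrial ribosomal RNA took 1.18% of the counts of the HFD GFP-high library, which stood apart in this, against 2.54% to 2.82% in the other 3 libraries. Pools of cells were sequenced, so fewer cells of a type and less RNA per cell cannot be told apart in any result.

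The promoters of 3 members are shown because these genes carried the largest differences between the fractions of a B-class receptor, an A-class ephrin and a B-class ephrin. Each window is the RefSeq sequence of GRCm38.p6 from 250 bases before to 50 bases after the annotated start, written 5′ to 3′ along the gene. Capitals mark the TCF core CTTTGA or CTTTGT on either strand, read on the other strand as TCAAAG or ACAAAG. TCF factors are the DNA-binding partners of beta-catenin. The windows are chr16:21204545-21204844 (plus strand) for Ephb3, chr3:89337979-89338278 (minus strand) for Efna4 and chr8:8661193-8661492 (minus strand) for Efnb2.
Ephb3: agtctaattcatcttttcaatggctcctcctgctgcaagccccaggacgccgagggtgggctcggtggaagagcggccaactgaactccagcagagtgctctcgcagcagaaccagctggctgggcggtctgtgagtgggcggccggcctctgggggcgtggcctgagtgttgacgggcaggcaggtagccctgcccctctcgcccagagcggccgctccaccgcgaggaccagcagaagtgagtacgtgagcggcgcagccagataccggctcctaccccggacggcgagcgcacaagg
Efna4: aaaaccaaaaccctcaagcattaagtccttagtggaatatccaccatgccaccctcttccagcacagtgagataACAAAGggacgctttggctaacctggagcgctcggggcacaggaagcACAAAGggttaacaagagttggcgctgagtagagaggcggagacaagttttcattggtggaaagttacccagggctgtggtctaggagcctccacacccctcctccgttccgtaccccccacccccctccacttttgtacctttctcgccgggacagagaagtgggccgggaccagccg
Efnb2: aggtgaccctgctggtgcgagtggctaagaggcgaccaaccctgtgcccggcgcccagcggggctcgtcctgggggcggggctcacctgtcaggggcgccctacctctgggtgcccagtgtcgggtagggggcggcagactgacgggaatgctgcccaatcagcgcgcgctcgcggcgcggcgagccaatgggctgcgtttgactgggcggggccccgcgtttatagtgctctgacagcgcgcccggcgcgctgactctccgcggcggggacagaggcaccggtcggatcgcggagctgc
The Efna4 window held ACAAAG at positions -176 and -129 from the start, and the Ephb3 and Efnb2 windows held neither core.

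All 10 members matched a window, and Efna1 matched a second one, which makes 11 windows. A core was found in 2 of the 11, those of Efna4 and of Epha2, where CTTTGA lay at position -209 from the start. Over all 32851 RefSeq windows of the same length, CTTTGA was present in 16.0%, CTTTGT in 18.7% and either of them in 31.2%. The windows of the members were rich in G and C, at 54.7% to 72.3% with a median of 63.7%, and the median over all windows was 52.7%. A missing core says only that these letters are not in this window.

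The fractions were compared first, with diet as a second term in the fit. EdgeR called 9 of the 10 members at an adjusted p under 0.05, 5 higher and 4 lower in GFP-high cells. Over all tested genes it called 22.0% higher and 25.6% lower, 47.6% in all, so a call alone does not set the family apart. The median log2 ratio (GFP-high to GFP-low) was 0.35 over the 10 members and 0.00 over all tested genes. Among receptors 4 were higher and 2 lower, and among ephrins 1 was higher and 2 were lower. With 1 library a group, the only spread left for these p-values is how unequally the fractions differed under the diets. A real difference of that kind is counted as error, and the variation among the 4 libraries may otherwise be technical.

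**Figure D1:**
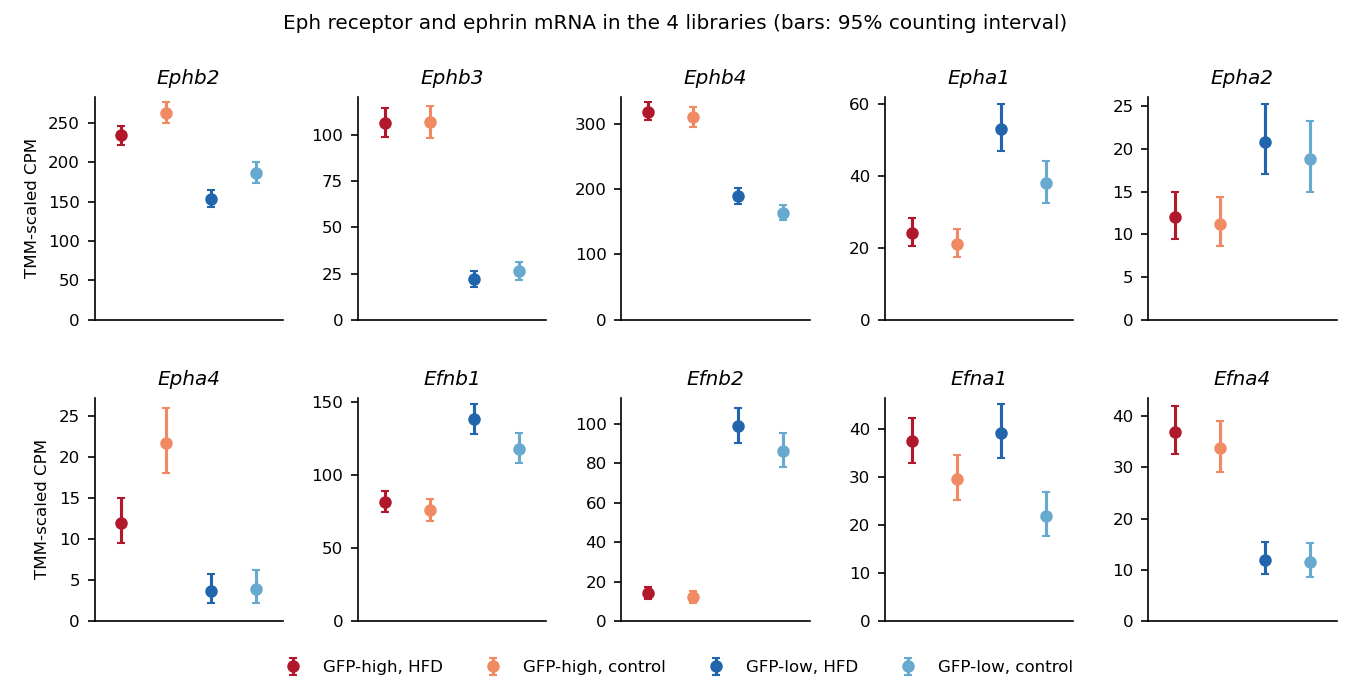
Level of each member in the 4 libraries, in TMM-scaled CPM on a linear axis from 0, with 1 point per library and bars for the exact 95% counting interval. Both GFP-high points lie above both GFP-low points for Ephb2, Ephb3, Ephb4, Epha4 and Efna4, and below them for Epha1, Epha2, Efnb1 and Efnb2.

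The B-class receptors were all higher in GFP-high cells, and Ephb3 showed the largest difference. Ephb3, on GRCm38 at chr16:21204755-21223305, was at 107 CPM in both GFP-high libraries, against 21.9 CPM in GFP-low cells under HFD and 26.3 CPM in GFP-low cells under control. It was 4.45-fold higher in GFP-high (fitted log2 ratio 2.16 ± 0.13 SE, edgeR adjusted p = 2.09e-09). Ephb2, at chr4:136647539-136835988, was at 234 and 263 CPM in GFP-high cells under HFD and control, against 154 and 187 CPM in GFP-low cells. That difference was smaller, at 1.46-fold (log2 0.55 ± 0.10 SE, edgeR adjusted p = 0.0002). Ephb4, the receptor that binds ephrin-B2 above all, lies at chr5:137350109-137378669. It was at 318 and 310 CPM in GFP-high cells under HFD and control, against 189 and 164 CPM in GFP-low cells, 1.78-fold higher in GFP-high (fitted log2 ratio 0.84 ± 0.10 SE, edgeR adjusted p = 3.75e-06). No GFP-high library overlapped a GFP-low library for any of these genes, which held for 33.7% of all tested genes in this direction. In fits to 3 libraries with fraction as the only term, Ephb3 was called each time. Ephb4 was not called without the HFD GFP-high library (log2 0.81, edgeR adjusted p = 0.0528). Ephb2 was not called without the HFD GFP-high library (log2 0.63, edgeR adjusted p = 0.106), without the HFD GFP-low library (log2 0.41, edgeR adjusted p = 0.128) or without the control GFP-high library (log2 0.50, edgeR adjusted p = 0.164).

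Markers of other cell types that use these receptors were read beside them. Ephb3 is also known from Paneth cells, whose markers summed to 456 and 793 CPM in GFP-high cells under HFD and control, against 1124 and 2315 CPM in GFP-low cells. Of those 8 markers, edgeR called 7 lower in GFP-high, and the part of Paneth cell RNA in the Ephb3 result was not tested. Ephb4 is a receptor of venous endothelium. The 10 endothelial markers summed to 15.6 and 16.5 CPM in GFP-high cells under HFD and control, against 5.26 and 6.34 CPM in GFP-low cells. Esam, an adhesion molecule of endothelium and some epithelia, had 71 and 52 counts in GFP-high cells under HFD and control, against 4 and 12 in GFP-low cells, and held most of the sum in GFP-high cells only. Vwf, a clotting factor carrier of endothelium, had 18 and 27 counts in GFP-high cells against 16 and 10 in GFP-low cells, and Egfl7, a secreted endothelial protein, had 8 and 9 against 0 and 2. Of the other 7 markers, Pecam1, Tek, Tie1, Kdr and Flt1 had at most 4 counts in any library, and Cdh5 and Emcn had 0 in all 4. A count of 0 allows up to 0.483 to 0.641 CPM by library totals. The part of endothelial RNA in the Ephb4 result was not tested. Ephb4 also shares 33 exon bases with Zan on the opposite strand, and whether the counting used strand was not stated in the sources used here. Zan had 469 and 400 counts in GFP-high cells under HFD and control, against 269 and 253 in GFP-low cells, and its part in the Ephb4 counts was not tested.

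The A-class receptors went in both directions. Epha4, a receptor that binds ephrins of both classes, lies at chr1:77367185-77515088. It was at 12 and 21.7 CPM in GFP-high cells under HFD and control, against 3.64 and 3.85 CPM in GFP-low cells. It was 4.35-fold higher in GFP-high (fitted log2 ratio 2.12 ± 0.30 SE, edgeR adjusted p = 3.08e-05), from 80 and 120 counts in GFP-high cells against 18 and 17 in GFP-low cells. Epha1, at chr6:42358487-42373268, was at 24.1 and 21.0 CPM in GFP-high cells under HFD and control, against 53.0 and 37.8 CPM in GFP-low cells. It was 2.01-fold lower in GFP-high (fitted log2 ratio -1.01 ± 0.15 SE, edgeR adjusted p = 3.63e-05). Epha2, a receptor of epithelial cells that binds ephrin-A1, lies at chr4:141301240-141329384 and was lower in GFP-high as well, at 12 and 11.2 CPM in GFP-high cells against 20.8 and 18.8 CPM in GFP-low cells. The difference was 1.71-fold (log2 -0.77 ± 0.20 SE, edgeR adjusted p = 0.00522).

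Of the receptor calls, that for Epha2 was lost most often. DESeq2 did not call Epha2 (log2 -0.77, DESeq2 adjusted p = 0.142), and no 3-library fit did, with edgeR adjusted p between 0.0646 and 0.170. Epha1 was not called without the HFD GFP-high library (log2 -1.12, edgeR adjusted p = 0.0624), without the HFD GFP-low library (log2 -0.74, edgeR adjusted p = 0.0543) or without the control GFP-high library (log2 -0.88, edgeR adjusted p = 0.0983). Epha4 was called in each 3-library fit. Epha1 shares 236 exon bases with Zyx on the opposite strand. Zyx, a focal adhesion protein, had 413 and 546 counts in GFP-high cells under HFD and control, against 328 and 327 in GFP-low cells, and was not called (log2 0.16, edgeR adjusted p = 0.333).

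Both B-class ephrins among the members were lower in GFP-high cells, the reverse of the B-class receptors. Efnb2, at chr8:8617434-8661242, encodes a transmembrane ligand of Ephb4 and of the other EphB receptors and had the largest difference of all members. It was at 14.1 and 11.9 CPM in GFP-high cells under HFD and control, against 99.1 and 86.5 CPM in GFP-low cells. That made it 7.12-fold lower in GFP-high (fitted log2 ratio -2.83 ± 0.14 SE, edgeR adjusted p = 2.07e-10). Efnb1, its relative on the X chromosome at chrX:99136130-99148991, was at 81.6 and 75.7 CPM in GFP-high cells under HFD and control, against 138 and 118 CPM in GFP-low cells. It was 1.63-fold lower in GFP-high (fitted log2 ratio -0.70 ± 0.10 SE, edgeR adjusted p = 4.69e-05). Both GFP-high libraries lay below both GFP-low libraries for each gene, as in 34.3% of all tested genes. Enterocyte markers, summed above, moved in the same direction. Goblet markers did so too, at 3156 and 3557 CPM in GFP-high cells under HFD and control, against 17779 and 40514 CPM in GFP-low cells. Paneth and enteroendocrine sums were also lower in GFP-high, and the part of these cell types in the Efnb1 and Efnb2 results was not tested. Efnb1 was not called without the HFD GFP-high library (log2 -0.76, edgeR adjusted p = 0.0701) or without the control GFP-high library (log2 -0.61, edgeR adjusted p = 0.109), while Efnb2 was called in each 3-library fit.

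The A-class ephrins differed from each other. Efna4, a lipid-anchored ligand at chr3:89333390-89338028, was at 37.0 and 33.8 CPM in GFP-high cells under HFD and control, against 11.9 and 11.6 CPM in GFP-low cells. It was 3.01-fold higher in GFP-high (fitted log2 ratio 1.59 ± 0.17 SE, edgeR adjusted p = 1.51e-06) and was called in each 3-library fit. It shares 168 exon bases with the antisense gene 4731419I09Rik, which had 13 and 9 counts in GFP-high cells under HFD and control, against 5 and 0 in GFP-low cells. Efna1, the ligand first known as an inflammation-induced gene of human endothelium, lies at chr3:89271733-89281142. It was at 37.5 and 29.7 CPM in GFP-high cells under HFD and control, against 39.3 and 22.0 CPM in GFP-low cells, so its libraries overlapped between the fractions. Its fraction ratio did not pass the test (log2 0.15 ± 0.16 SE, edgeR adjusted p = 0.464).

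**Figure D2:**
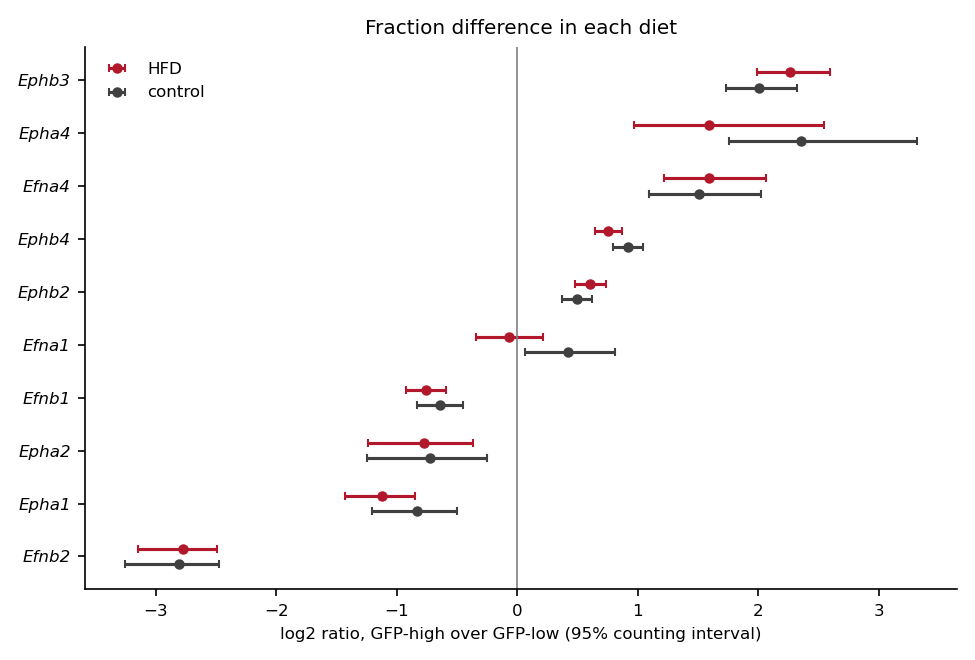
Log2 ratio (GFP-high to GFP-low) for each member, within HFD (upper point of each pair) and within control (lower point), 1 library on each side, with exact 95% counting intervals. The ratios run between 2.26 and -2.77 under HFD and between 2.35 and -2.81 under control, and only Efna1 has an interval that spans 0, under HFD.

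Within each diet the same fraction ratios were read with 1 library on each side and without a test, as log2 of CPM with 0.5 CPM added. At least 2-fold differences were found for 3 members higher and 2 lower in GFP-high under HFD, where 6.34% of all genes with at least 5 CPM in the higher library were higher by that much and 9.05% lower. Under control they were found for 3 members higher and 1 lower, against 5.43% and 9.30% of all such genes. Ephb3 had a ratio of 2.26 (interval 1.99 to 2.59) under HFD and 2.0 (interval 1.74 to 2.33) under control. Efnb2 had -2.77 (interval -3.15 to -2.49) under HFD and -2.81 (interval -3.26 to -2.48) under control. Epha1 made the count uneven between the diets, at -1.12 (interval -1.43 to -0.85) under HFD and -0.83 (interval -1.20 to -0.50) under control. Epha4 had 1.59 (interval 0.97 to 2.54) under HFD and 2.35 (interval 1.76 to 3.32) under control, and these intervals overlap. With scaling by library totals the counts were 4 members under HFD, where Epha1 stood at -0.91, and 5 under control, where Ephb4 stood at 1.09.

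Levels of different genes were compared per kilobase of annotated exon. Ephb4 was first in all 4 libraries, at 68.6 ± 1.49 and 66.7 ± 1.61 CPM per kilobase (counting SE) in GFP-high cells under HFD and control, against 40.6 ± 1.33 and 35.3 ± 1.31 in GFP-low cells. Efnb1 came second in each library, at 23.7 ± 1.01 and 21.9 ± 1.07 CPM per kilobase in GFP-high cells, against 40.0 ± 1.53 and 34.2 ± 1.50 in GFP-low cells. In GFP-low cells Ephb4 and Efnb1 did not differ beyond counting error. In GFP-high cells Efnb1 and Efna4 did not differ from each other beyond it either. Ephb2 and Ephb3 were near each other in GFP-high cells, at 18.6 and 16.1 CPM per kilobase under HFD, whereas in GFP-low cells under HFD they stood at 12.2 and 3.29.

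The lower end of the order changed between the fractions. Efnb2 ranked 9 under HFD and 10 under control in GFP-high cells, at 2.05 ± 0.21 and 1.74 ± 0.21 CPM per kilobase, and ranked 4 in both GFP-low libraries, at 14.5 ± 0.65 and 12.6 ± 0.65. Ephb3 ranked 6 in both GFP-high libraries and 9 in both GFP-low libraries, at 3.29 ± 0.32 and 3.96 ± 0.37 CPM per kilobase in GFP-low cells. Epha4 was lowest in GFP-low cells, at 0.45 and 0.48 CPM per kilobase under HFD and control. At the low end in GFP-high cells, Epha2 and Efnb2 did not differ beyond counting error under either diet.

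Summed over the members, the B-class receptors were at about 4 times the level of the B-class ephrins in GFP-high cells. In GFP-low cells they were near the level of those ephrins. Ephb2, Ephb3 and Ephb4 together were at 103 and 104 CPM per kilobase in GFP-high cells under HFD and control, against 56.1 and 54.1 in GFP-low cells. Efnb1 and Efnb2 together were at 25.7 and 23.7 CPM per kilobase in GFP-high cells, against 54.4 and 46.8 in GFP-low cells. Efnb3, a B-class ephrin outside the members, was left out of the sum. It was at 0.471 and 1.36 CPM per kilobase in GFP-high cells under HFD and control, against 1.33 and 1.07 in GFP-low cells. The receptor to ligand ratio was 4.02 (95% counting interval 3.69 to 4.37) in HFD GFP-high cells, against 1.03 (0.954 to 1.11) in HFD GFP-low cells. It was 4.38 (3.98 to 4.83) in control GFP-high cells, against 1.15 (1.06 to 1.26) in control GFP-low cells. Ephb4, which binds ephrin-B2 above all, made up most of the receptor sum, and Efnb1 most of the ephrin sum. The ratio therefore does not pair receptors with their preferred ligands, and it has no replicate and no test. With Ephb2 and Ephb3 as the only receptors it was 1.35 and 1.56 in GFP-high cells under HFD and control, against 0.284 and 0.401 in GFP-low cells.

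**Figure D3:**
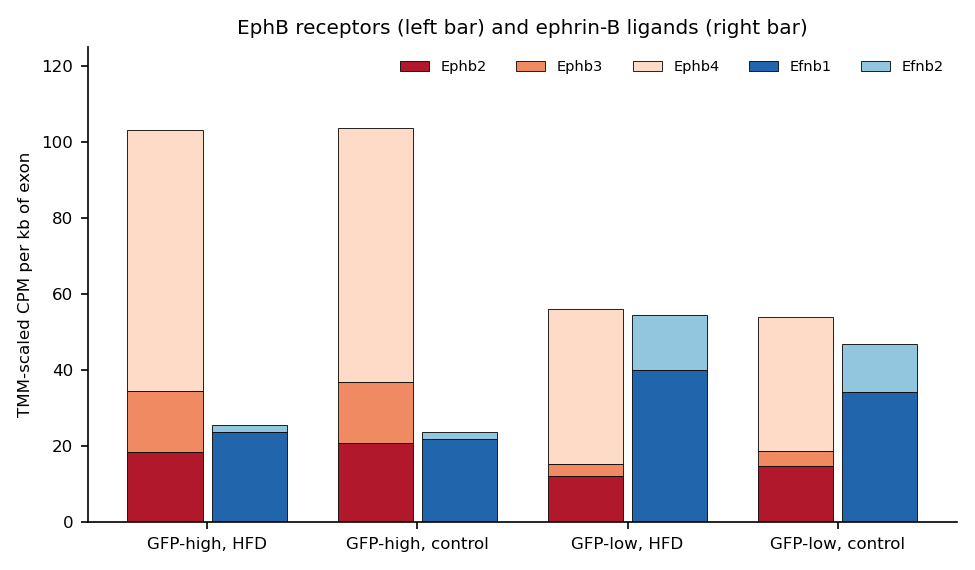
Stacked levels of the B-class receptors (left bar of each pair) and of the ephrins Efnb1 and Efnb2 (right bar) in each library. Values are TMM-scaled CPM per kilobase of annotated exon, with 1 library per pair of bars and no error bars. The receptor bar reaches 103 and 104 in GFP-high cells against ephrin bars of 25.7 and 23.7, and the bars are near level in GFP-low cells.

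The make-up of each class differed as well. Ephb3 made up 15.6% and 15.5% of the EphB receptor level in GFP-high cells under HFD and control, against 5.86% and 7.32% in GFP-low cells. Efnb2 made up 7.99% and 7.37% of the summed Efnb1 and Efnb2 level in GFP-high cells under HFD and control. In GFP-low cells it made up 26.6% and 27.0%. The ratio of Ephb2 to Ephb3 was 1.16 and 1.29 in GFP-high cells under HFD and control, against 3.71 and 3.74 in GFP-low cells. These values depend on the exon length used. Per kilobase of the longest annotated transcript, Ephb2 to Ephb3 was 0.956 and 1.07 in GFP-high cells under HFD and control, against 3.06 and 3.09 in GFP-low cells, so which of them is higher in HFD GFP-high cells turns with the length.

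Diet was compared over both fractions, with fraction as the second term. EdgeR called 1 of the 10 members, Efna1, higher in HFD, and 0 lower. Over all tested genes 2.96% were called higher and 3.50% lower in HFD, 6.46% in all. Efna1 was at 37.5 and 39.3 CPM in HFD cells (GFP-high and GFP-low), against 29.7 and 22.0 CPM in control cells. Both HFD libraries lay above both control libraries, as in 11.6% of all tested genes, and no other member was free of overlap in either direction. Efna1 rose 1.47-fold (log2 0.56 ± 0.16 SE, edgeR adjusted p = 0.0436). The call was lost with DESeq2 size factors (log2 0.55, edgeR adjusted p = 0.0891), with scaling by library totals (log2 0.56, edgeR adjusted p = 0.0519) and in the DESeq2 test (log2 0.57, DESeq2 adjusted p = 0.879). With diet as the only term, on 4 or on 3 libraries, edgeR called 0 of all tested genes. On 3 libraries the Efna1 ratio ran from 0.37 without the control GFP-low library to 0.82 without the control GFP-high library. Enterocyte markers, of which 5 of 9 rose in HFD, summed to 807 and 6937 CPM in HFD cells (GFP-high and GFP-low), against 589 and 3143 CPM in control cells. Goblet markers summed to 3156 and 17779 CPM in HFD cells, against 3557 and 40514 CPM in control cells. Of these 7, edgeR called 0 for diet. A diet difference that is unequal between the fractions counts as error in the fit, so this does not show unchanged goblet RNA. Paneth markers summed to 456 and 1124 CPM in HFD cells, against 793 and 2315 CPM in control cells. Of these 8, edgeR called 6 lower in HFD, and 2 of 7 enteroendocrine markers as well. The part of any of these cell types in the Efna1 result was not tested.

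No receptor was called for diet by edgeR or by DESeq2, and 3 of the 6 had an unadjusted p under 0.05, beside 20.3% of all tested genes. Ephb2 was at 234 and 154 CPM in HFD cells (GFP-high and GFP-low), against 263 and 187 CPM in control cells, with a fitted diet difference of log2 -0.22 ± 0.10 SE (edgeR adjusted p = 0.202). Epha1, at 24.1 and 53.0 CPM in HFD cells against 21.0 and 37.8 CPM in control cells, had a fitted diet difference of log2 0.36 ± 0.15 SE (edgeR adjusted p = 0.173). Epha4 was at 12 and 3.64 CPM in HFD cells against 21.7 and 3.85 CPM in control cells, with a fitted diet difference of log2 -0.66 ± 0.28 SE (edgeR adjusted p = 0.202). Ephb3 and Ephb4 had log2 ratios of -0.09 and 0.12, and the ephrins Efnb1, Efnb2 and Efna4 had 0.17, 0.21 and 0.10. The median over the 10 members was 0.12, and over all tested genes 0.01. Each library is 1 pool, so diet cannot be told apart from other differences between pools, and its p-values would be too small had the same mice supplied both fractions.

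**Figure D4:**
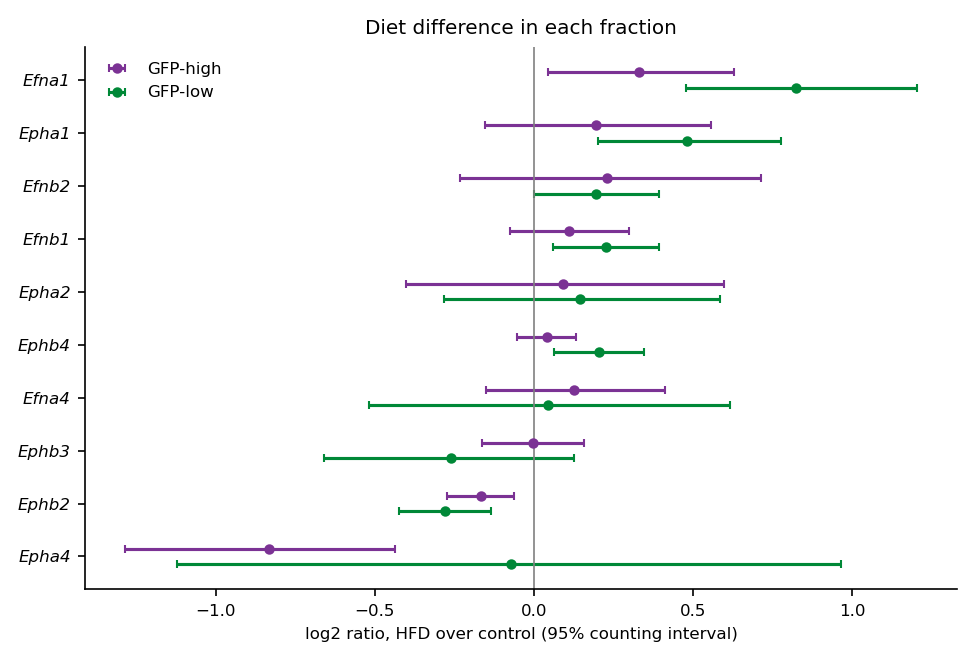
Log2 ratio of HFD over control for each member, within GFP-high (upper point of each pair) and within GFP-low (lower point), 1 library on each side, with exact 95% counting intervals. Efna1 lies above 0 in both fractions, Ephb2 below 0 in both, and Epha4 stands at -0.83 in GFP-high and -0.07 in GFP-low.

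Read within a fraction, no member differed between the diets by 2-fold. That was 0 of 10 in GFP-high cells, where 0.810% of all genes were higher and 1.51% lower by that much. It was 0 of the 9 with at least 5 CPM in GFP-low cells, where 1.58% were higher and 2.63% lower. Efna1 had a log2 ratio of 0.33 (interval 0.05 to 0.63) in GFP-high cells and 0.82 (interval 0.48 to 1.20) in GFP-low cells. Epha4 had -0.83 (interval -1.28 to -0.44) in GFP-high cells, and -0.07 (interval -1.12 to 0.97) in GFP-low cells, where its 18 and 17 counts leave a wide interval. Epha1 had 0.20 (interval -0.15 to 0.56) in GFP-high cells and 0.48 (interval 0.20 to 0.78) in GFP-low cells. Ephb2 had -0.17 (interval -0.27 to -0.06) in GFP-high cells and -0.28 (interval -0.42 to -0.14) in GFP-low cells. The difference between a member's diet ratios, GFP-high minus GFP-low and divided by 2, was -0.25 ± 0.12 (counting SE) for Efna1 and -0.38 ± 0.27 for Epha4. No degree of freedom is left to test it.

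The other 12 genes of the family were mostly at or near the detection limit. Of these, 9 had at most 3 counts in every library, and 4 had 0 counts in all (Epha8, Ephb1, Ephb6 and Efna5). Efna3, a further lipid-anchored ligand that lies near Efna4 on chromosome 3, was tested. It had 25.2 and 16.3 CPM in GFP-high cells under HFD and control, against 16.2 and 7.48 CPM in GFP-low cells. It was higher in GFP-high (fitted log2 ratio 0.82 ± 0.21 SE, edgeR adjusted p = 0.00387) and higher in HFD (log2 0.81 ± 0.21 SE, edgeR adjusted p = 0.0266). In 3-library fits neither ratio passed. Those of diet lack the fraction term, so their outcome is not particular to Efna3. The fraction ratio ran from 0.36 without the control GFP-low library to 1.48 without the HFD GFP-low library (edgeR adjusted p between 0.0521 and 0.599), and the diet ratio from 0.35 without the control GFP-low library to 1.49 without the control GFP-high library, and DESeq2 called it for neither comparison (DESeq2 adjusted p = 0.0959 for fraction and 0.623 for diet). Efnb3, an ephrin best known from the nervous system, had 10 and 24 counts in GFP-high cells under HFD and control, against 21 and 15 in GFP-low cells, and was called in neither comparison. Epha7, below the filter, had 43 and 11 counts in HFD cells (GFP-high and GFP-low), against 3 and 1 in control cells. In a fit without the filter its diet ratio was log2 3.42 ± 0.68 SE (edgeR adjusted p = 2.76e-05), a value that rests on few counts. Its fraction ratio there was log2 1.48 ± 0.59 SE (edgeR adjusted p = 0.0417). Adjusted p-values of that fit do not compare with the others. For Ephb3 by fraction, edgeR gave 2.24e-56 without the filter, against 2.09e-09 with it.

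Partners of the pathway were read from lists fixed by name. Of 31 genes for adapters, kinases and exchange factors that act with Eph receptors, 28 were tested, 5 were higher and 2 lower in GFP-high, beside 22.0% and 25.6% of all tested genes, and the median log2 ratio was 0.07. DESeq2 called 4 of the 28 for fraction. Tiam1, a Rac exchange factor, was higher in GFP-high by log2 1.20 ± 0.13 SE (edgeR adjusted p = 1.68e-06), and Grb7, an adapter, by 1.05 ± 0.10 SE (edgeR adjusted p = 3.07e-07). Ngef, an exchange factor also called ephexin, and the kinase Abl1, both named after their values were seen, were higher by log2 0.97 ± 0.14 and 0.41 ± 0.10 SE (edgeR adjusted p = 3.54e-05 and 0.00252). DESeq2 and all 3-library fits lost Abl1 (DESeq2 adjusted p = 0.106, edgeR adjusted p = 0.108 to 0.196), and Ngef was lost without the HFD GFP-high library (log2 0.98, edgeR adjusted p = 0.0505). The adapter Crk and the protease Adam10 were the lower ones, both by log2 -0.28 ± 0.10 SE (edgeR adjusted p = 0.0287 and 0.035). Grb7 was called in each 3-library fit, Tiam1 in all but the one without the control GFP-high library (log2 1.02, edgeR adjusted p = 0.0552), and Crk and Adam10 in none. With scaling by library totals the ratios of Crk and Adam10 were -0.09 and -0.08 and neither was called (edgeR adjusted p = 0.498 and 0.534). For diet edgeR called 0 of the 28, with 3 at an unadjusted p under 0.05, and DESeq2 called 0.

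On the ephrin side, 9 of 11 genes for reverse signalling were tested, with 2 higher (Tiam1 and Dvl2) and 4 lower in GFP-high, beside 22.0% and 25.6% of all tested genes, and a median log2 ratio of -0.11. DESeq2 called 2 of the 9 for fraction. Dvl2, a scaffold shared with Wnt signalling whose interval overlaps Acadvl on the opposite strand, was higher by log2 0.92 ± 0.20 SE (edgeR adjusted p = 0.00134). The small GTPases Cdc42, Rhoa and Rac1 were lower by log2 -0.62 ± 0.09, -0.34 ± 0.09 and -0.29 ± 0.09 SE (edgeR adjusted p = 5.96e-05, 0.00689 and 0.0192), and the other lower gene was Sdcbp, a PDZ scaffold, named after its value was seen. Sdcbp was lost in every 3-library fit, with DESeq2 (DESeq2 adjusted p = 0.413), and with library totals, where it stood at -0.06 (edgeR adjusted p = 0.645). Rhoa and Rac1 were called in no 3-library fit, and with scaling by library totals they stood at -0.15 and -0.10 without a call (edgeR adjusted p = 0.206 and 0.423). Cdc42 was not called without the HFD GFP-high library (log2 -0.59, edgeR adjusted p = 0.109) or the control GFP-high library (log2 -0.60, edgeR adjusted p = 0.103), and Dvl2 in no 3-library fit. For diet edgeR called 0 of the 9, with 1 at an unadjusted p under 0.05, and DESeq2 called 0.

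Ephb2 and Ephb3 are counted among Wnt targets in the mouse crypt. A list of 18 Wnt target and pathway genes had 15 tested. Of these, 14 were higher and 1 lower (Tcf7l2) in GFP-high, beside 22.0% and 25.6% of all tested genes. The median log2 ratio of the list was 2.01. It shares genes with the 9 stem cell markers read above, Axin2 among them, and is not independent of them. Axin2, a feedback inhibitor of the pathway, was at 450 and 523 CPM in GFP-high cells under HFD and control, against 89.8 and 128 CPM in GFP-low cells. Its ratio was log2 2.17 ± 0.11 SE (edgeR adjusted p = 2.14e-10), beside 2.16 for Ephb3 and 0.55 for Ephb2. For diet edgeR called 5 of the 15 lower and 0 higher in HFD, beside 3.50% and 2.96% of all tested genes, and DESeq2 called 1. With diet as the only term edgeR called 0 of all tested genes.

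The genes nearest in pattern were found by the distance between log2 values over the 4 libraries, each gene centred on its own mean, among 8889 candidates with at least 10 CPM in 2 libraries. Nearest to Ephb3 were Slco3a1 at a distance of 0.09, Ripor2 at 0.10 and Notch1 at 0.11. Notch1, at 243 and 267 CPM in GFP-high cells under HFD and control, stood at 54.8 and 64.8 CPM in GFP-low cells. Nearest to Efnb2 were Cdkn1a at 0.16, Ehbp1l1 at 0.19 and Slc40a1 at 0.22. Cdkn1a, the cell cycle inhibitor p21, had 11.1 and 8.51 CPM in GFP-high cells under HFD and control, against 67.6 and 64.3 CPM in GFP-low cells. Ephb2 had Depdc5, Terf2 and Exd2 as its nearest, at 0.04 to 0.05, and Efnb1 had Uqcrfs1, Cd151 and Coro1b, at 0.02 to 0.03. With 4 libraries many genes share a pattern this simple.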

How the data were processed

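Poly(A)-selected RNA was sequenced from sorted cells with a strand-specific dUTP kit, per the labels' protocols. The authors deposited raw counts of reads per gene, 1 table for each of 4 libraries. Per the submitters' processing notes reads were handled with HTSeq, TopHat (version 1.4.1) and cutadapt, on builds mm10 and GRCm38. Which annotation was counted, and whether by strand, was not stated in the sources used here. Of 38124 gene identifiers, 36345 matched a symbol. Positions and exon lengths came from GENCODE release M21 on GRCm38.

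The counts were scaled by TMM factors from all genes. A gene was tested if 2 or more libraries held 20 or more counts (10694 genes), by the two-sided quasi-likelihood F-test of edgeR (version 4.0.16, on R 4.3.3), with diet and fraction as additive terms, which leave 1 residual degree of freedom. P-values were adjusted by the Benjamini-Hochberg method over all tested genes, with a threshold of 0.05. Ratios between 2 single libraries used CPM with 0.5 CPM added, which understates the change of low genes. Their exact 95% intervals, for a ratio of Poisson counts, had nothing added. For low genes the printed ratio is therefore nearer to no change than the ratio its interval describes. Limits for 0 counts use 3 counts. No molecular identifiers are named in the labels, so intervals and limits cover counting error only. The fit was also run on simulated counts, with the same fixed dispersion for every gene and no difference between pools. That run cannot show how well the p-values hold for these pools.

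Alternatives were DESeq2 version 1.42.0, other scalings, other filters, single-term fits and fits without each library. TMM factors from the tested genes only were an alternative chosen after seeing the data. The members and lists were chosen with earlier results of these data known. All 10 members, the other 12 genes of the family, the 3 nearest genes in pattern of 4 members and at most the 3 largest and 3 smallest ratios of a list were named, with further genes marked in the text. A pathway list and 1 exchange factor are not reported here.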

Additional observations from a re-analysis of the deposited data

How the results depend on the processing

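The 9 members called between the fractions kept their direction under every alternative run. Of them, DESeq2 called 8, a filter of 100 counts left 7 to test and all 7 were called, and 4 to 8 were called when each library was left out. The 4 called in each 3-library fit were Ephb3, Epha4, Efnb2 and Efna4. Over all genes the fraction calls numbered 5090, against 2390 with DESeq2, 2948 with fraction as the only term and 954 to 2118 without each library. Scaling by library totals moved the median fraction ratio of all genes to 0.19 on the log2 scale and called 3633 genes higher and 1903 lower (65.6% higher, against 46.2% of the calls with TMM), and no called member changed direction. Of the uncalled ratios between single libraries, Efna1 (GFP-high over GFP-low under HFD) turned to 0.14, and Ephb3 (HFD over control in GFP-high) to 0.014. Diet calls over all genes numbered 691, against 1158 without a filter, 187 with DESeq2, and 0 with diet as the only term (149 at an unadjusted p under 0.05) or without any one library (86 to 159). Efna1, the 1 member called for diet, became 0 members called with DESeq2 size factors, library totals, TMM factors from the tested genes, DESeq2, diet as the only term and each 3-library fit. With Ephb2 and Ephb3 only, the EphB to ephrin-B ratio moved to 1.35 and 1.56 in GFP-high cells under HFD and control, against 0.284 and 0.401 in GFP-low cells.

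A 3-library fit of diet sets 1 library of one fraction against libraries of both, so fraction differences enter it by construction. There the log2 diet ratio ran over -0.54 to 0.082 (Ephb2), -1.61 to 1.33 (Ephb3), -0.32 to 0.66 (Ephb4), -0.28 to 0.87 (Epha1), -0.32 to 0.54 (Epha2), -1.81 to 1.06 (Epha4), -0.25 to 0.54 (Efnb1), -1.80 to 2.24 (Efnb2), -0.93 to 1.12 (Efna4), 0.37 to 0.82 (Efna1), 0.35 to 1.49 (Efna3) and -1.36 to 0.13 (Efnb3). The uncalled fraction ratios ran over -0.22 to 0.61 (Efna1) and -1.30 to 0.18 (Efnb3). A fit that leaves an arm with 1 library assumes that it varies like the other arm. No paired analysis was possible because each group has 1 library and the labels give no replicate numbers. The fraction fit does hold diet as a term, and so compares the fractions within each diet.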
